A study of Homo sapiens with 12 samples.

Results

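The 10 genes described here encode the thioredoxin and peroxiredoxin systems: the thioredoxins TXN and TXN2, the thioredoxin reductases TXNRD1 and TXNRD2, and the peroxiredoxins PRDX1, PRDX2, PRDX3, PRDX4, PRDX5 and PRDX6. They were chosen by symbol from the 20323 genes of the deposited table, each symbol stood at 1 identifier, and all 10 were among the 12718 genes that passed the low-count filter. RNA was sequenced from the established human lung adenocarcinoma line A549 in 4 groups of 3 libraries: cells with intact LKB1 (genotype label WT) and LKB1-deficient cells (titled con), each pretreated with phosphate-buffered saline (PBS) or with high-dose AA. In the titles AA is VitC, that is, ascorbate. LKB1 is the kinase encoded by STK11. Neither a dose nor a time is given, nor how the intact and deficient cells were made, and A549 itself is widely described as carrying an inactivating STK11 mutation. The labels do not tie the 3 libraries of a group to separate cultures. A p-value here therefore judges a difference only against the spread of these samples, and that spread may be technical.

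Thioredoxin reductases are selenocysteine-containing flavoenzymes that pass electrons from NADPH to thioredoxin. Reduced thioredoxin in turn reduces disulfides in ribonucleotide reductase, methionine sulfoxide reductases and most peroxiredoxins, which are the peroxidases that remove much of the cell's hydrogen peroxide. TXN and TXNRD1 work mainly in the cytosol, and TXN2, TXNRD2 and PRDX3 in mitochondria. A549 is known for a KEAP1 mutation that leaves the transcription factor NRF2 active, and TXN, TXNRD1, PRDX1 and the sulfiredoxin gene SRXN1 are described targets of NRF2, which binds antioxidant response elements.

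Upstream windows from RefSeq (GRCh38.p14) were available for 7 of the 10 genes, and the 250 bases before each listed start were searched on both strands. Of these 7 genes, TXNRD1 was the one with a match to the antioxidant response element TGACNNNGC, and it had a match before each of its listed starts. It is shown because TXNRD1 had the highest CPM of the 10 genes under PBS and fell under AA in both kinds of cell. The upstream start lies at the 5′ end of the gene, and its window, chr12:104215529-104215778 on the plus strand, overlaps no annotated exon. The capitals mark the match, which begins 99 bases before the start. For the internal start only the bases around the match are shown. That match lies on the minus strand, 102 bases before the start, in the window chr12:104286782-104287031, which overlaps an exon of TXNRD1.
TXNRD1 upstream start: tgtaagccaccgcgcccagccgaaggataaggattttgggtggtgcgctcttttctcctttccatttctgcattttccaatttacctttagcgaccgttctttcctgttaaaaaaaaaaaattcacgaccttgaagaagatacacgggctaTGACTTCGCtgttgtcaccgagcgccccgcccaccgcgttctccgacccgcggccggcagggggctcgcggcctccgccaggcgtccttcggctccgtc
TXNRD1 internal start: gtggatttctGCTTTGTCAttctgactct
Of 35116 windows of this length, 10.9% held a match to this element, so a match is common. The E-box CACGTG (6.34% of all windows) was found before the starts of PRDX3 and PRDX4, and the AP-1 element TGANTCA (6.57%), which can share its opening TGA with the antioxidant response element, the ATF4 element TTGCATCA (0.772%) and the heat shock element (0.441%) were found before none of the 7. These are matches of letters, and no binding was measured.

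To check the labels, STK11 was read before the other genes. In CPM (counts scaled to library size, here with TMM factors) it was 25.4, 24.6 and 23.6 in intact cells under PBS and 5.94, 6.56 and 4.86 in deficient cells under PBS, and the groups did not overlap. Under AA it was 24.3, 28.2 and 25.6 CPM in intact and 5.61, 7.34 and 6.97 CPM in deficient cells. Library totals lay between 16055534 and 20306129 estimated counts, of which the 10 genes took 0.349 to 0.407%. The epithelial markers KRT8, KRT18 and KRT7 were abundant, while KRT19 (means of 0.102 to 0.290 CPM) and CDH1 (1.17 to 1.61 CPM) were close to absent. The summed leukocyte markers stayed at or below 1.60 CPM in every library, the fibroblast markers at 10.6 to 14.8 CPM, most of it COL1A1, and the endothelial markers at 6.56 to 10.7 CPM under PBS and 0.719 to 4.29 CPM under AA, most of it CDH5. CD3E, PDGFRA and KDR were at 0 in all libraries, and PTPRC and PECAM1 had means of at most 0.07 CPM. The summed level of the 6 epithelial markers was 2785 to 2890 CPM in intact cells under PBS and 3896 to 4043 CPM under AA, against 2488 to 2732 and 2525 to 2603 CPM in deficient cells. These markers did not move together under AA. The log2 changes in deficient and intact cells were -0.72 and 0.46 for KRT8 and 0.38 and -0.16 for KRT7. They were 0.43 and 0.89 for KRT18, 0.35 and 0.30 for EPCAM, and -0.16 and -0.41 for CDH1. The part of these markers in the results that follow was not tested.

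Under PBS the 10 genes stood in much the same order in both kinds of cell. Per length of transcript, in FPKM (fragments scaled by transcript length and depth), PRDX1 had the highest level, 900 ± 14.4 (SD, n = 3) in intact and 905 ± 14.8 in deficient cells. TXNRD1 followed with 476 ± 8.76 and 473 ± 18.0 FPKM. TXN stood at 253 ± 14.3 and 275 ± 13.7 FPKM. The other peroxiredoxins lay between 177 and 247 FPKM, and both mitochondrial partners lay far lower, TXNRD2 at 39.8 ± 0.446 and 36.9 ± 1.67 FPKM and TXN2 at 32.9 ± 0.832 and 31.0 ± 1.33 FPKM. In intact cells TXN, PRDX5 and PRDX6 were neighbours whose libraries overlapped, as were PRDX3 and PRDX2; in deficient cells PRDX5 overlapped PRDX6 and PRDX2 overlapped PRDX3.

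None of the 10 genes differed between deficient and intact cells under PBS by edgeR's quasi-likelihood test with a Benjamini-Hochberg adjusted p under 0.05, the threshold for a call throughout. In this comparison 0.275% of all tested genes were called, 0.055% higher and 0.22% lower. At an unadjusted p under 0.05 there were 2, TXN with a log2 change of 0.12 ± 0.049 (SE) and TXNRD2 with -0.12 ± 0.051, both at an adjusted p of 0.479. DESeq2 and limma on FPKM called none of the 10 either. The libraries of the 2 kinds did not overlap for TXN2 and TXNRD2, lower in deficient cells, and PRDX2, higher there, and 13.4% of all genes did not overlap. The 95% intervals of the log2 differences under PBS were narrow for PRDX1 (-0.05 to 0.06), PRDX6 (-0.06 to 0.06) and TXNRD1 (-0.08 to 0.03).

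**Figure D1:**
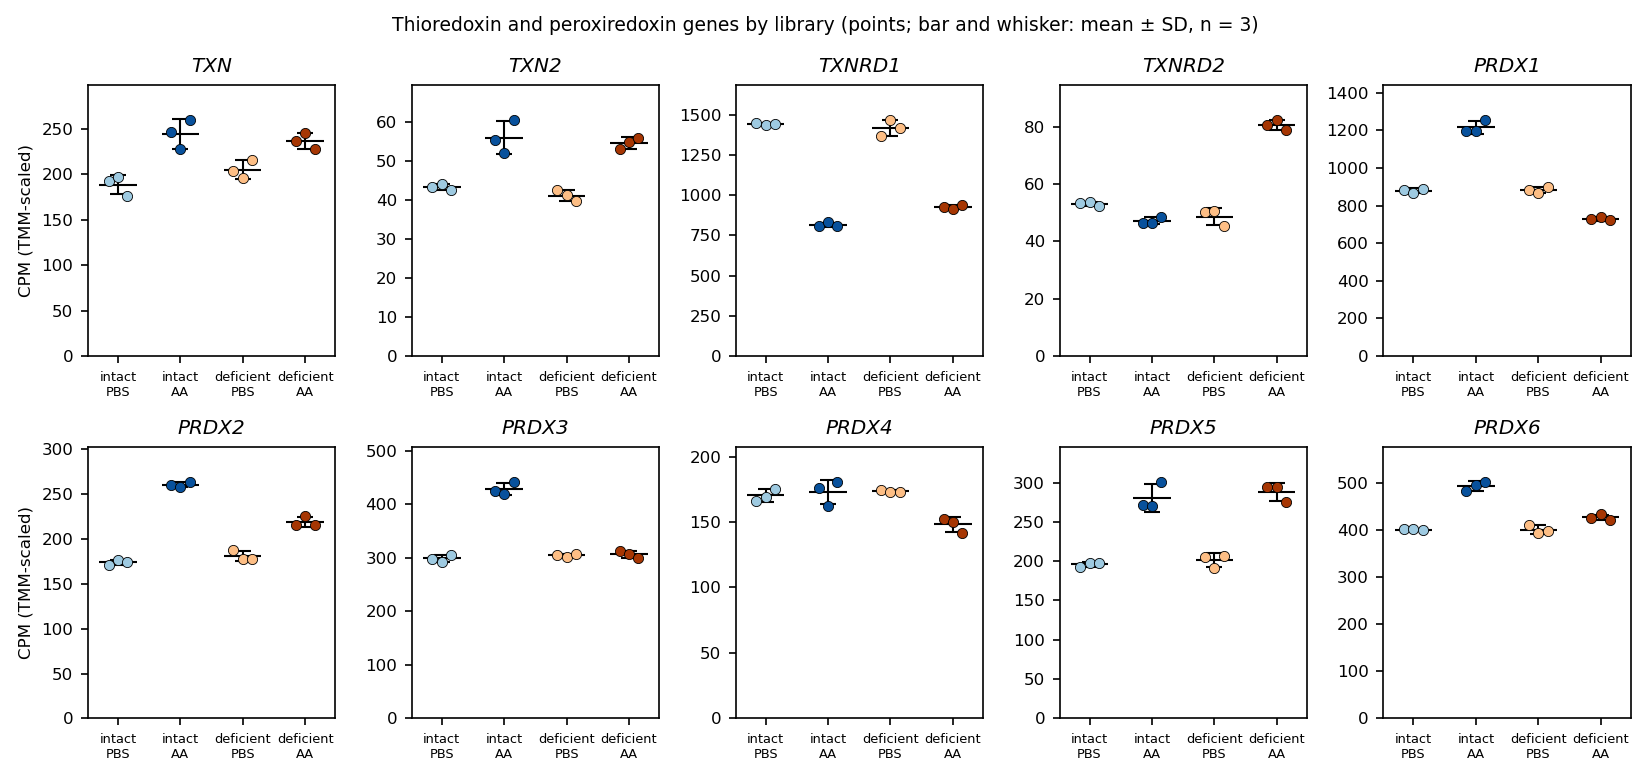
Level of each of the 10 genes in TMM-scaled CPM (y axis, from 0) in the 12 libraries (points) of the 4 groups (x axis), with the mean and SD of 3 libraries as bar and whisker. TXNRD1 was lower under AA in both kinds of cell, TXNRD2 stood at 80.6 CPM in deficient cells under AA against 47.1 to 53.0 in the other groups, and PRDX1 was lowest in deficient and highest in intact cells under AA.

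Under AA 9 of the 10 genes were called in each kind of cell. In deficient cells TXN, TXN2, TXNRD2, PRDX2, PRDX5 and PRDX6 rose and TXNRD1, PRDX1 and PRDX4 fell, where 74.4% of all genes were called (37% higher and 37.4% lower). In intact cells TXN, TXN2, PRDX1, PRDX2, PRDX3, PRDX5 and PRDX6 rose and TXNRD1 and TXNRD2 fell, where 69.8% of all genes were called (34.5% higher and 35.2% lower). The same genes were those whose AA and PBS libraries did not overlap, as for 75.5% of all genes in deficient and 72.7% in intact cells. Most of the transcriptome was called under AA, so the number of these genes called is not itself a result about them, and the description rests on directions and sizes. In bulk RNA, fewer cells with a transcript and less of it per cell cannot be told apart. The median log2 change of the 10 was 0.15 in deficient and 0.37 in intact cells, beside 0.01 over all genes in both. Short transcripts as a class were higher under AA. The shortest of 4 length classes, which holds 9 of the 10, had medians of 0.35 and 0.28. The AA effect differed between the 2 kinds of cell for 8 of the 10, higher in deficient cells for TXNRD1 and TXNRD2 and lower for TXN and for PRDX1, PRDX2, PRDX3, PRDX4 and PRDX6, where 44.6% of all genes were called (21.6% higher and 23% lower). Calls that also reached a log2 change of 0.5 in size were 3 of the 10 in deficient cells (39.7% of all genes), 4 in intact cells (30.5%) and 3 for the difference (16.9%). The difference is made from the same 12 libraries as the AA effects in the 2 kinds of cell and is not independent of them.

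The reductases parted under AA in deficient cells, while both fell in intact cells. TXNRD1 (ENSG00000198431; chromosome 12, 104215779 to 104350305, plus strand, GENCODE release 29 on GRCh38), the cytosolic reductase, stood at 1448, 1439 and 1445 CPM in intact cells under PBS and at 807, 832 and 810 CPM under AA. In deficient cells it stood at 1371, 1468 and 1416 CPM under PBS and at 925, 913 and 939 CPM under AA. Every AA library was thus below every PBS library of its kind, and the deficient AA libraries were all above the intact ones. TXNRD1 fell by 0.82 ± 0.026 (SE) on the log2 scale in intact cells (1.77-fold lower, adjusted p = 6.0e-17) and by 0.62 ± 0.026 in deficient cells (1.53-fold lower, adjusted p = 3.5e-15). The fall was smaller in deficient cells by 0.21 ± 0.036 (adjusted p = 6.8e-05). EID3 lies inside TXNRD1 on the same strand and was not called under AA (log2 changes of 0.15 in deficient and -0.17 in intact cells).

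TXNRD2 (ENSG00000184470; chromosome 22, 19875517 to 19941992, minus strand), the mitochondrial reductase, moved in opposite directions. It was measured at 50.1, 50.6 and 45.2 CPM in deficient cells under PBS and at 80.6, 82.3 and 78.9 CPM under AA. In intact cells the libraries read 53.4, 53.6 and 52.2 CPM under PBS and 46.4, 46.4 and 48.5 CPM under AA. The deficient AA libraries stood above all the others, and the intact AA libraries stood just below their PBS controls. TXNRD2 rose by 0.73 ± 0.048 on the log2 scale in deficient cells (1.66-fold, adjusted p = 9.0e-12) and fell by 0.17 ± 0.050 in intact cells (adjusted p = 0.0047), a call that was lost with upper quartile scaling (log2 change -0.11, adjusted p = 0.0606). The difference between these effects, 0.90 ± 0.069 (adjusted p = 8.9e-10), was the largest in size among the 10 genes. TXNRD2 overlaps annotated genes on the opposite strand, and the sources used here do not say whether counting used strand, so reads in the overlaps cannot be assigned with certainty.

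Both thioredoxins rose in both kinds of cell in the main test. With offsets for transcript length, described below, TXN turned to -0.21 in deficient and -0.031 in intact cells. TXN2 then lost its call in deficient cells (0.10). TXN (ENSG00000136810; chromosome 9, 110243811 to 110256640, minus strand), the cytosolic thioredoxin, was at 192, 197 and 177 CPM in intact cells under PBS and at 246, 227 and 260 CPM under AA. In deficient cells it was at 203, 196 and 216 CPM under PBS and at 237, 246 and 228 CPM under AA. The AA libraries were above the PBS libraries of their kind, but the 2 kinds of cell overlapped under each treatment. TXN rose by 0.38 ± 0.048 on the log2 scale in intact (adjusted p = 5.2e-07) and by 0.21 ± 0.048 in deficient cells (adjusted p = 0.00057). Its difference in AA effect, -0.17 ± 0.068, was close to the threshold (adjusted p = 0.0488), and the call was lost without replicate 1 or replicate 3 of any of the 4 groups (adjusted p of 0.0566 to 0.158). TXN2 (ENSG00000100348; chromosome 22, 36467036 to 36482030, minus strand), the mitochondrial thioredoxin, went from 41.1 ± 1.44 to 54.5 ± 1.43 CPM (SD, n = 3) in deficient cells and from 43.3 ± 0.745 to 55.9 ± 4.26 CPM in intact cells, with log2 changes of 0.41 ± 0.056 (adjusted p = 1.1e-06) and 0.37 ± 0.055 (adjusted p = 4.6e-06). The difference between the latter effects was 0.04, with a 95% interval of -0.13 to 0.20.

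Among the peroxiredoxins, PRDX1 and PRDX3 had the largest differences between the 2 kinds of cell. PRDX1 (ENSG00000117450; chromosome 1, 45511036 to 45523047, minus strand), an abundant cytosolic peroxidase, was at 883, 865 and 889 CPM in intact cells under PBS and at 1197, 1199 and 1256 CPM under AA. In deficient cells it was at 883, 869 and 899 CPM under PBS and at 727, 741 and 723 CPM under AA. The PBS libraries of the 2 kinds overlapped, and the AA libraries lay above them in intact cells and below them in deficient cells. PRDX1 rose by 0.47 ± 0.025 on the log2 scale in intact cells (adjusted p = 6.4e-13) and fell by 0.27 ± 0.026 in deficient cells (adjusted p = 2.8e-09), a difference of -0.74 ± 0.036 (adjusted p = 5.1e-13). PRDX1 was the only one of the 10 genes with fractional estimated counts in all 12 libraries, as an estimator gives when it divides reads among similar sequences, and its values are less certain for that reason. It also overlaps MMACHC on the opposite strand by 2347 bases; MMACHC was not called under AA in either kind of cell (log2 changes of 0.07 and 0.12).

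PRDX3 (ENSG00000165672; chromosome 10, 119167703 to 119178833, minus strand), the mitochondrial peroxidase served by TXN2, was at 298, 292 and 305 CPM in intact cells under PBS and at 424, 419 and 441 CPM under AA. In deficient cells the libraries read 305, 301 and 306 CPM under PBS and 313, 307 and 300 CPM under AA, and these overlapped. The rise in intact cells was 0.52 ± 0.030 on the log2 scale (1.43-fold, adjusted p = 1.4e-12). The log2 change in deficient cells was 0.01, with a 95% interval of -0.05 to 0.07, and the difference was -0.51 ± 0.042 (adjusted p = 2.7e-09).

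PRDX2, PRDX5 and PRDX6 rose in both kinds of cell in the main test. In deficient cells, offsets for transcript length, described below, turned PRDX2 to -0.12 and PRDX6 to -0.10. PRDX2 (ENSG00000167815; chromosome 19, 12796820 to 12801859, minus strand), a second cytosolic peroxidase, went from 174 ± 2.55 to 261 ± 2.52 CPM (SD, n = 3) in intact cells (log2 change 0.58 ± 0.032, adjusted p = 9.5e-13) and from 181 ± 5.93 to 219 ± 5.76 CPM in deficient cells (0.27 ± 0.033, adjusted p = 1.2e-07). The effect differed by -0.31 ± 0.046 (adjusted p = 1.1e-05). PRDX2 lies inside HOOK2 on the same strand over 5040 bases, and its estimated counts were whole in all 12 libraries. PRDX6 (ENSG00000117592; chromosome 1, 173477266 to 173488807, plus strand), the 1-Cys member, which uses glutathione rather than thioredoxin, went from 401 ± 1.41 to 494 ± 9.72 CPM in intact cells (0.30 ± 0.027, adjusted p = 2.7e-09) and from 401 ± 9.16 to 427 ± 5.60 CPM in deficient cells (0.09 ± 0.027, adjusted p = 0.0045), with a difference of -0.21 ± 0.039 (adjusted p = 0.00014).

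PRDX5 (ENSG00000126432; chromosome 11, 64318088 to 64321811, plus strand), the atypical 2-Cys member found in mitochondria, peroxisomes and cytosol, rose in both, with a difference close to 0. It went from 196 ± 3.25 to 281 ± 17.4 CPM (SD, n = 3) in intact and from 202 ± 8.60 to 288 ± 11.2 CPM in deficient cells, with log2 changes of 0.52 ± 0.042 (adjusted p = 4.3e-10) and 0.51 ± 0.042 (adjusted p = 2.7e-10). The difference had a 95% interval of -0.13 to 0.12. PRDX4 (ENSG00000123131; chromosome X, 23664262 to 23686399, plus strand), the peroxidase of the endoplasmic reticulum, was the one peroxiredoxin not called in intact cells, at 170 ± 4.77 and 173 ± 9.33 CPM. It fell in deficient cells from 173 ± 1.03 to 148 ± 5.60 CPM (log2 change -0.23 ± 0.040, adjusted p = 2.7e-05), and the difference was -0.25 ± 0.056 (adjusted p = 0.0010).

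Compared directly under AA, deficient cells had more TXNRD2 (log2 difference 0.77 ± 0.048, 1.71-fold, adjusted p = 7.6e-12) and TXNRD1 (0.18 ± 0.026, adjusted p = 2.7e-06) than intact cells. They had less PRDX1 (-0.74 ± 0.026, 1.67-fold lower, adjusted p = 5.0e-16), PRDX3 (-0.48 ± 0.029, adjusted p = 6.9e-12), PRDX2 (-0.25 ± 0.032), PRDX4 (-0.22 ± 0.039) and PRDX6 (-0.21 ± 0.027). For each of these 7 genes the 3 libraries of the 2 kinds did not overlap. In this comparison 59% of all genes were called (28.7% higher and 30.3% lower) and 63.2% did not overlap. A log2 difference of at least 0.5 in size was reached by 2 of the 10, TXNRD2 and PRDX1 (19.7% of all genes), and under PBS by none (0.0865%). TXN (-0.05), TXN2 (-0.04) and PRDX5 (0.04) were not called in the main test. With length offsets, described below, TXN (-0.089, adjusted p = 0.0244) and TXN2 (-0.14, adjusted p = 0.0173) were called lower in deficient cells. The members called were then 9, with 2 higher and 7 lower. PRDX5 was called with library size alone (0.094, adjusted p = 0.0482).

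**Figure D2:**
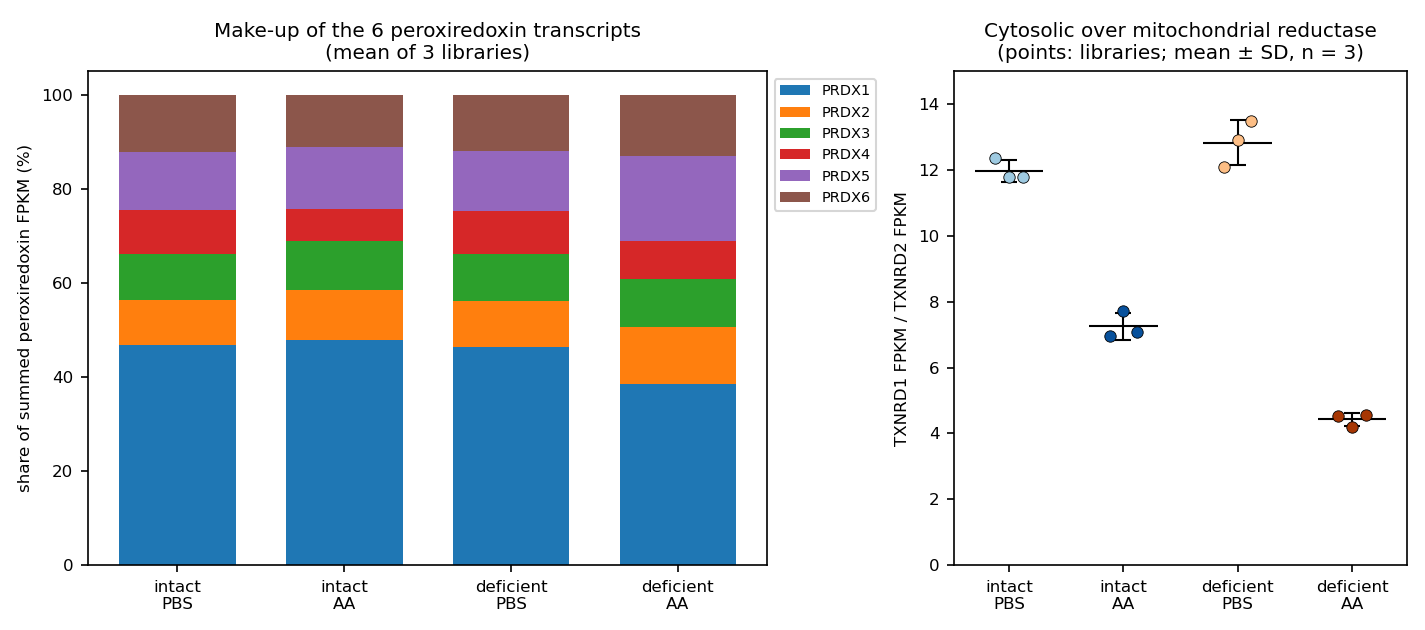
Left, share of each peroxiredoxin in the summed FPKM of the 6 genes (y axis, percent) by group (x axis), as means of 3 libraries. Right, TXNRD1 FPKM divided by TXNRD2 FPKM in each library (points) with mean ± SD (n = 3). The PRDX1 share was 38.5% in deficient cells under AA against 46.3 to 47.8% in the other groups, and the reductase ratio was 12.8 under PBS and 4.43 under AA in deficient cells, and 11.98 and 7.25 in intact cells.

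The make-up of the family is given here in FPKM as a description without a test. The summed peroxiredoxin level was 1926 ± 18.5 FPKM (SD, n = 3) in intact cells under PBS and 2618 ± 68.3 under AA, but 1956 ± 35.9 and 2004 ± 38.6 FPKM in deficient cells, where the libraries overlapped. PRDX1 held 46.3 ± 0.452% of that sum in deficient cells under PBS and 38.5 ± 0.398% under AA, while PRDX5 went from 12.6 ± 0.281% to 18.2 ± 0.454%. In intact cells PRDX1 held 46.7 ± 0.441% and 47.8 ± 0.218%. The ratio of TXNRD1 to TXNRD2 was 12.8 ± 0.695 in deficient cells under PBS and 4.43 ± 0.195 under AA, and 11.98 ± 0.329 and 7.25 ± 0.415 in intact cells. The ratio of TXN to TXNRD1 was 0.583 and 0.531 under PBS in deficient and intact cells, and 1.124 and 1.302 under AA. With offsets for transcript length, an alternative added after these values were seen and described with the AA effects by length, the AA ratios of TXN to TXNRD1 were 0.705 and 0.858, so that TXN no longer exceeded TXNRD1. All values with offsets here were rebuilt from the PBS FPKM and the edgeR log2 changes of counts with offsets. The step from FPKM to scaled counts thus also enters these shifts, and its part was not separated from that of the offsets. The ratio of TXNRD1 to TXNRD2 under AA was then 6.86 in deficient and 9.48 in intact cells. The summed peroxiredoxin level under AA was then 1521 FPKM in deficient cells, below that under PBS, and 2140 FPKM in intact cells, while the share of PRDX1 was 37.6% and 46.8%. For the mitochondrial pair, the ratio of TXN2 to TXNRD2 was 0.841 under PBS and 0.641 under AA in deficient cells, and 0.829 and 1.21 in intact cells.

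**Figure D3:**
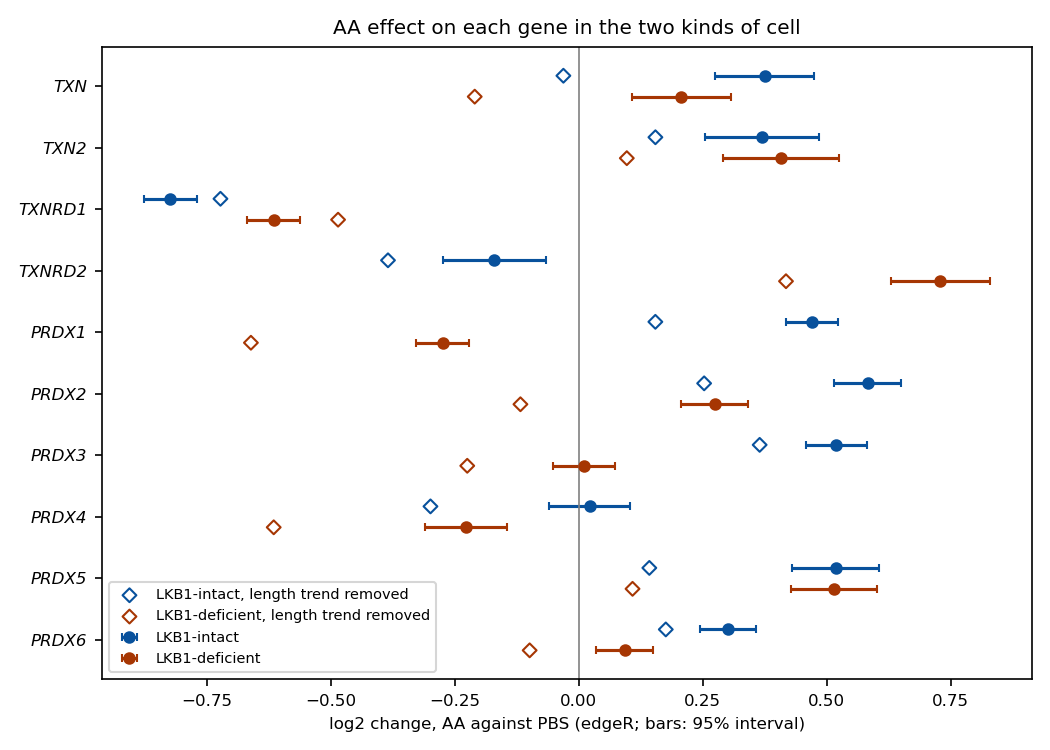
log2 change of each gene under AA against PBS (x axis) in intact (blue) and deficient (red) cells, as filled points with 95% intervals from edgeR; open diamonds show the change after the trend of log2 count on transcript length was removed. Removing the trend moved most genes to lower values in both kinds of cell by like amounts, so the gap between the 2 kinds remained for TXNRD2, PRDX1 and PRDX3.

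Transcript length moved with the AA effect over all genes. The median log2 change in the shortest of 4 equal length classes (207 to 1703 bases) was 0.35 in deficient and 0.28 in intact cells, and in the longest class -0.36 and -0.28. Of the 10 genes, 9 lie in the shortest class and TXNRD1 in the third. With offsets that remove this trend from each library, 2 of the 10 rose and 7 fell in deficient cells, and 6 rose and 3 fell in intact cells. TXN in deficient cells turned to -0.21 (adjusted p = 6.9e-06), PRDX2 to -0.12 and PRDX6 to -0.10, and TXN in intact cells to -0.031 (adjusted p = 0.436). The rise of TXN2 in deficient cells lost its call (0.10, adjusted p = 0.0976), and PRDX3 in deficient (-0.22) and PRDX4 in intact cells (-0.30) gained a fall. The direction of a called AA effect thus depended on this setting for TXN, PRDX2 and PRDX6.

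Sizes moved too, although the difference between the kinds of cell changed little. The log2 change of PRDX1 became -0.66 in deficient and 0.15 in intact cells, that of PRDX5 0.11 and 0.14, that of TXNRD2 0.42 and -0.38, and that of TXNRD1 -0.49 and -0.72. PRDX4 in deficient cells became -0.61, and in intact cells PRDX2 became 0.25, PRDX6 0.18 and TXN2 0.15. The 8 differences in AA effect that were called kept their direction and call, with values of 0.80 for TXNRD2, -0.82 for PRDX1 and -0.59 for PRDX3. The part of length, or of RNA quality that can move with it, was not tested.

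**Figure D4:**
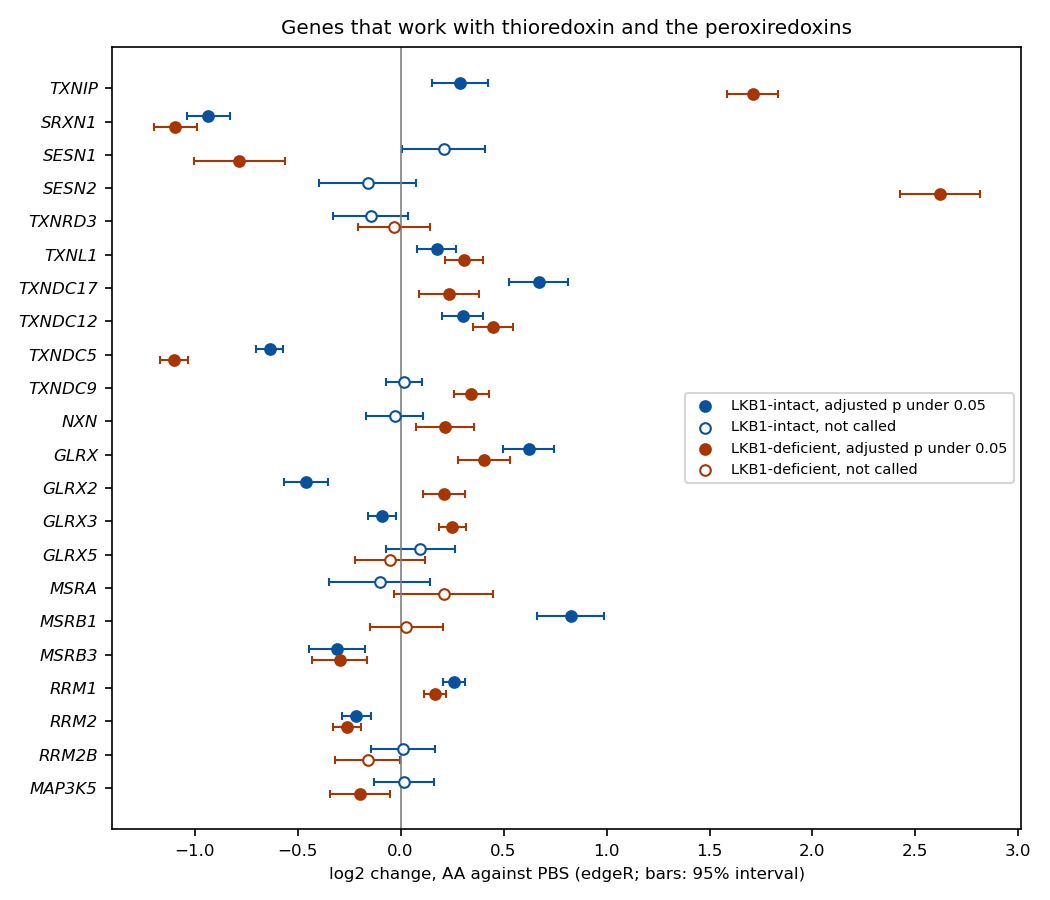
log2 change under AA against PBS (x axis, edgeR, bars are 95% intervals) of 22 genes that work with thioredoxin and the peroxiredoxins, in intact (blue) and deficient (red) cells; filled points have an adjusted p under 0.05. SESN2 and TXNIP rose by 2.62 and 1.71 in deficient cells and SRXN1 fell in both.

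Of 24 genes that regulate, assist or depend on thioredoxin and the peroxiredoxins, 22 were tested. In deficient cells 11 rose and 6 fell, in intact cells 7 rose and 6 fell, and the AA effect was higher in deficient cells for 6 and lower for 6. Called in all were 17, 13 and 12 of the 22, where the shares of all genes were 74.4%, 69.8% and 44.6%. The median log2 changes were 0.19 in deficient and 0.01 in intact cells, beside 0.01 over all genes in both. With length offsets the split was 5 up and 7 down in deficient and 9 up and 7 down in intact cells. None was called between the 2 kinds of cell under PBS by edgeR, 5 had an unadjusted p under 0.05, and DESeq2 and limma on FPKM called none. TXNIP, which binds and inhibits thioredoxin, was at 52.8, 47.1 and 58.1 CPM in deficient cells under PBS and at 161, 176 and 179 CPM under AA. In intact cells it was at 45.8, 45.3 and 49.2 CPM under PBS and at 53.5, 58.5 and 59.2 CPM under AA. All AA libraries were above their controls, those of deficient cells by far more. TXNIP rose by 1.71 ± 0.060 on the log2 scale in deficient (adjusted p = 1.7e-16) and by 0.29 ± 0.066 in intact cells (adjusted p = 0.00058), a difference of 1.42 ± 0.089 (adjusted p = 3.4e-11). With length offsets these values for TXNIP were 1.81, 0.37 and 1.44.

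SRXN1, sulfiredoxin, which restores overoxidised peroxiredoxins, fell from 110 ± 1.26 to 51.6 ± 2.80 CPM (SD, n = 3) in deficient and from 106 ± 7.25 to 55.6 ± 1.81 CPM in intact cells. Its log2 changes were -1.09 ± 0.051 (adjusted p = 2.2e-14) and -0.93 ± 0.050 (adjusted p = 5.8e-13), and the difference between them was not called (adjusted p = 0.0761). SRXN1 shares 6745 bases on its strand with another annotated protein-coding gene, and its estimated counts were whole in all 12 libraries. SESN2, a stress-induced sestrin, went from 6.62 ± 0.916 to 40.8 ± 2.44 CPM in deficient cells (log2 change 2.62 ± 0.093, adjusted p = 2.3e-16) and was at 7.05 ± 0.486 and 6.32 ± 0.149 CPM in intact cells, without a call. SESN1, a sestrin known as a p53 target, fell in deficient cells by 0.78 ± 0.107 on the log2 scale (adjusted p = 9.5e-07) and had a log2 change of 0.21 in intact cells without a call. With length offsets SESN1 was called in both, at -0.61 in deficient and 0.35 in intact cells (adjusted p = 0.0032 in the latter).

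Among thioredoxin-like and thioredoxin-dependent proteins, TXNDC5, an endoplasmic reticulum disulfide isomerase, fell in both, by 1.10 ± 0.033 on the log2 scale in deficient and 0.64 ± 0.032 in intact cells. The mitochondrial glutaredoxin gene GLRX2 rose in deficient cells (0.21 ± 0.049) and fell in intact cells (-0.46 ± 0.052). GLRX3, a glutaredoxin of iron-sulfur metabolism, parted the same way (0.25 ± 0.032 and -0.09 ± 0.033). With length offsets both went below 0 in deficient cells too (GLRX2 -0.16, adjusted p = 0.0066; GLRX3 -0.02, adjusted p = 0.529), while their differences in AA effect kept their calls (0.59 and 0.25). In deposited FPKM, however, GLRX2 rose in deficient cells from 46.1 ± 1.91 under PBS to 72.0 ± 3.60 under AA (SD, n = 3). GLRX3 rose there from 111 ± 2.60 to 139 ± 1.12 FPKM. The offsets take the same length for a gene in all libraries, and a change of its length under AA was not tested. MSRB1, a selenoprotein that repairs oxidised methionine, rose in intact cells from 19.6 ± 0.692 to 34.7 ± 2.68 CPM (log2 change 0.83 ± 0.078) and was at 17.1 ± 1.60 and 17.5 ± 1.22 CPM in deficient cells, without a call. With length offsets MSRB1 had a log2 change of 0.60 in intact and -0.29 in deficient cells. Of the ribonucleotide reductase subunits, RRM1 rose (0.17 and 0.26 in deficient and intact cells), RRM2 fell (-0.26 and -0.21) and RRM2B was not called in either. RRM2B gained a rise in intact cells with length offsets (0.21, adjusted p = 0.0143). MAP3K5, the kinase ASK1 that reduced thioredoxin holds inactive, fell in deficient cells by 0.20 ± 0.069 (adjusted p = 0.014) and had a log2 change of 0.02 in intact cells. The call in MAP3K5 in deficient cells was lost and its sign turned with length offsets (0.14, adjusted p = 0.0844). In intact cells MAP3K5 then gained a rise (0.27, adjusted p = 0.0018).

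Thioredoxin reductases are selenoproteins, and 21 other genes of selenoproteins and selenocysteine insertion were tested. In deficient cells 13 rose and 3 fell, and in intact cells 7 rose and 7 fell, with medians of 0.24 and 0.02 on the log2 scale, beside 0.01 over all genes in both. The 16 and 14 of 21 called are near the shares of all genes called, 74.4% and 69.8%. With length offsets 7 rose and 6 fell in deficient and 4 rose and 8 fell in intact cells. The AA effect was higher in deficient cells for 8 and lower for 2 (44.6% of all genes were called), and the count of called genes was 6 in place of 10 without replicate 1 of intact cells under PBS or replicate 3 of deficient cells under PBS. GPX1 and GPX4, glutathione peroxidases, rose in both: GPX1 by 0.44 ± 0.037 and 0.39 ± 0.037, GPX4 by 0.60 ± 0.040 and 0.47 ± 0.041 in deficient and intact cells. With length offsets GPX1 lost both calls (0.04 and 0.05) and GPX4 kept both at 0.19 and 0.09. SEPSECS, the enzyme of the last step of selenocysteine synthesis on its tRNA, went from 11.4 ± 1.18 to 23.0 ± 1.00 CPM in deficient cells (log2 change 1.01 ± 0.089, adjusted p = 9.9e-10) and was at 10.6 ± 0.385 and 10.5 ± 0.765 CPM in intact cells. SELENON, a calcium-handling selenoprotein of the endoplasmic reticulum, fell in both (-0.74 ± 0.056 and -0.29 ± 0.054), the latter call being lost with length offsets (-0.10, adjusted p = 0.102).

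Of 12 tested genes that supply NADPH, 5 rose and 3 fell in deficient cells (median log2 change 0.12), and 7 rose and 2 fell in intact cells (median 0.12), beside the same 74.4% and 69.8% of all genes called. MTHFD2 and ALDH1L2, mitochondrial enzymes of folate metabolism, stood out in deficient cells, with MTHFD2 at 203 ± 2.71 CPM under PBS and 486 ± 3.57 under AA, and ALDH1L2 at 31.2 ± 1.82 and 82.6 ± 4.09 CPM. ALDH1L2 fell in intact cells (31.6 ± 1.78 to 21.9 ± 0.823 CPM, log2 change -0.53), and its difference in AA effect was 1.94 ± 0.089 on the log2 scale (adjusted p = 2.3e-13). With length offsets the fall of ALDH1L2 in intact cells was -0.16 (adjusted p = 0.0446) and its difference 2.04. Some other genes of this list gained a call in deficient cells with length offsets. IDH1, the cytosolic isocitrate dehydrogenase, rose in both kinds of cell (0.41 ± 0.038 and 0.67 ± 0.037). Of 15 other described NRF2 targets, 5 rose and 8 fell in deficient cells (median -0.18) and 7 rose and 6 fell in intact cells (median 0.01), where 13 called of 15 compares with 74.4% and 69.8% of all genes. With length offsets 2 rose and 12 fell in deficient and 4 rose and 9 fell in intact cells. GCLM, a subunit of glutamate-cysteine ligase, fell in both (-0.70 ± 0.039 and -0.51 ± 0.039), as TXNRD1 and SRXN1 did, whereas SLC7A11, the cystine transporter, rose in deficient cells (0.26 ± 0.033) and fell in intact cells (-0.99 ± 0.035). With length offsets the log2 changes of SLC7A11 were 0.85 and -0.53. HMOX1, heme oxygenase, fell in deficient cells (-0.33 ± 0.094) and rose in intact cells (0.43 ± 0.085).

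Likeness of pattern was described by Pearson's r of log2 CPM over the 12 libraries among 9682 genes with a mean log2 CPM of at least 3. The libraries fall into groups by treatment and kind of cell, so high values are common and carry no test. Nearest to TXNRD1 were IGF2BP1 (r = 0.998), TM4SF1, TEAD1, ZBTB26 and ZC3H7B, all with a larger fall in intact than in deficient cells. Nearest to TXN were COX4I1 (r = 0.986), CRIP1, TOMM7, COX6C and RPS27. Nearest to PRDX1 were UBB (r = 0.995), SH3BGRL, PHB, SKP1 and LDHA, whose log2 changes were all negative in deficient and positive in intact cells, as that of PRDX1 was. Such shared patterns follow from choosing the genes by r over these same libraries.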

How the data were processed

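Libraries were grouped by the genotype and treatment in the labels. Per the submitters' processing notes, tools included RSEM, StringTie 1.3.1, HISAT2 2.1.0, Bowtie2 2.2.8 and fastp 0.18.0. No build, annotation or strand setting is given in the sources used here. Estimated counts and FPKM values (per length and depth) are as the authors deposited them. Estimated counts were rounded, filtered with filterByExpr (minimum count 10; 12718 of 20323 genes and 99.97% of counts left) and fitted in 1 edgeR 4.0.16 quasi-likelihood model (R 4.3.3, TMM, 12 libraries, no covariate), with Benjamini-Hochberg adjustment over all tested genes. The standard error is the log2 change over the square root of F. Alternatives were DESeq2 1.42.0, limma 3.58.1 on log2(FPKM + 1) or log2(FPKM + 0.1), other scalings and filters, a replicate block, length offsets (length implied by count over FPKM), the libraries of a comparison alone, stricter thresholds and leaving out each library. Replicates differed by more than sampling noise (chi-square per degree of freedom 1.99 to 4.29). Positions are from GENCODE, not matched to the authors' build. The 10 genes and the gene lists were chosen with earlier results of these data known. Genes named were all 10, any thioredoxin partner, up to 4 called genes of smallest p per comparison from each other list, the 5 most alike to TXNRD1, TXN and PRDX1, and genes overlapping the 10; some that this rule takes are not reported here. Steps were tested on simulated counts.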

Additional observations from a re-analysis of the deposited data

Results flagged for a closer look

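Reported genes whose AA effect differed between deficient and intact cells by the test of the difference itself (edgeR, adjusted p under 0.05) are given here as log2 differences, deficient minus intact. Among the 10 genes these were TXNRD2 (0.90), TXNRD1 (0.21), PRDX1 (-0.74), PRDX3 (-0.51), PRDX2 (-0.31), PRDX4 (-0.25), PRDX6 (-0.21) and TXN (-0.17). Among the partners of thioredoxin they were SESN2 (2.78), TXNIP (1.42), GLRX2 (0.67), GLRX3 (0.34), TXNDC9 (0.33) and NXN (0.24) on the higher side and SESN1 (-0.99), MSRB1 (-0.80), TXNDC5 (-0.46), TXNDC17 (-0.44), GLRX (-0.22) and RRM1 (-0.091) on the lower. From the other lists only genes among the 4 of smallest p in each are given. Of 10 such selenoprotein genes these are SEPSECS (1.02), SELENOS (0.47), SELENOI (0.45) and SELENON (-0.45). Of 7 NADPH suppliers they are ALDH1L2 (1.94), MTHFD2 (1.03) and IDH1 (-0.26), and of 12 other NRF2 targets SLC7A11 (1.25), AKR1C1 (-1.175), HMOX1 (-0.76) and UGDH (-0.34). In each of these comparisons the difference was itself tested, and 44.6% of all genes had one.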

How the results depend on the processing

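Of 1140 values recomputed for the 10 genes, 1114 kept their side of the threshold and, where called at first, their direction. A call was lost in 14 and gained in 8. In 4 a called change turned sign, all with length offsets (TXN -0.21, PRDX2 -0.12 and PRDX6 -0.10 in deficient and TXN -0.031 in intact cells). Signs of changes not called at first were not counted. Some of these turned, as PRDX3 in deficient (-0.22) and PRDX4 in intact cells (-0.30) did with length offsets. With a log2 change of at least 0.5 asked for as well, the members called were 3 in deficient and 4 in intact cells, 3 for the difference and 2 between the kinds of cell under AA. Genes called between the kinds of cell under PBS, 35 of all tested, were 54 with DESeq2, 111 without a low-count filter, 5 and 5 with limma on FPKM and 56 with length offsets. Leaving out 1 library gave 6 to 43, with 6 to 15 without replicate 1, 2 or 3 of intact or replicate 1 or 3 of deficient cells under PBS. With library size alone, the share of higher calls in the difference was 57.9% in place of 48.4%, and TXN lost its call there (adjusted p = 0.177), as with limma on FPKM (0.272 and 0.273). Of the NADPH suppliers, limma on FPKM called 4 in place of 7 for the difference and 5 in place of 8 between the kinds of cell under AA. Among other NRF2 targets DESeq2, no filter and length offsets each called 1 in place of 0 under PBS. PRDX3 in deficient cells was called with library size alone and with limma on FPKM (0.07 in each).

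No pairing of the samples by replicate number was seen: deviations of same-numbered libraries correlated at -0.169 to 0.120 over 18 pairs, 1 of them over 0.1, and 6 pairs matched their own number best. The pairs reuse the same 12 libraries, and the check cannot show whether same-numbered samples were handled together. With a replicate block the members called for the difference were 7 in place of 8, TXN being the one lost (adjusted p = 0.0672), and 9, 9, 0 and 7 in the comparisons of AA in deficient cells, AA in intact cells, the kinds of cell under PBS and under AA. Depth was least for TXN2, whose lowest library held 644 estimated counts.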
